A study of Mus musculus with 12 samples.

Results

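The adhesion molecules and selectins that hold leukocytes to the vessel wall were followed in epididymal white adipose tissue (eWAT), through 9 genes chosen by name: Vcam1, Icam1, Icam2, Sele, Selp, Selplg, Jam2, Jam3 and Alcam. All 9 were among the 49315 genes of the count table, and 8 of them passed the filter on low counts that left 18702 genes for testing. Sele did not pass and was described by its counts alone. RNA-seq libraries came from 12 mice, 1 library per mouse, and every mouse had been fed a high fat diet (60% fat) for 12 weeks. Flox mice (miR-181a2b2flox/flox) carried the floxed Mir181a2b2 locus, and KO mice (miR-181a2b2-/-) lacked the locus in the whole body rather than in the endothelium alone. Mice of each genotype received weekly intraperitoneal injections of vehicle or of methotrexate (MTX, an antifolate used against rheumatoid arthritis) at 1 mg/kg, with 3 mice in each of the 4 groups. The mice were males according to the methods of the study, and their ages were not given in the sources used here.

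Leukocytes leave the blood in steps. Selectins on activated endothelium and platelets first catch leukocytes by sugar-bearing ligands such as PSGL-1, the product of Selplg, and let them roll. Immunoglobulin-type molecules such as VCAM-1 and ICAM-1 then bind leukocyte integrins and stop them, and junctional molecules such as JAM-B and JAM-C, the products of Jam2 and Jam3, take part in the passage between endothelial cells. Cytokines such as TNF switch on Vcam1, Icam1 and Sele in endothelium through NF-kappaB, and the macrophage content of fat commonly goes up in obesity. Several of these molecules are not limited to endothelium: Selplg is a gene of leukocytes, macrophages can also express Vcam1 and Icam1, and Selp is also made by megakaryocytes.

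The deleted locus encodes miR-181a and miR-181b, which share a seed, the bases 2 to 8 that pair with target mRNAs. According to the study, miR-181b is also expressed from another locus, the Mir181a-1/Mir181b-1 cluster, so its absence from KO mice cannot be assumed. The mature 5p sequences of the Mir181a-2 and Mir181b-2 genes are printed from RefSeq (GRCm38.p6, plus strand of chromosome 2, chr2:38852741-38852763 and chr2:38853845-38853868), with the seed in capitals, because the deleted locus encodes them.
miR-181a-5p: aACAUUCAacgcugucggugagu
miR-181b-5p: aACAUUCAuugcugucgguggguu
The letters that pair with this seed, TGAATGT, occurred in the annotated 3′ untranslated regions of 2 of the 9 genes, Icam1 and Jam2, against 15.4% of 20606 genes. The sites are printed with the pairing letters in capitals, in the mRNA direction, which is the plus strand for both genes (GRCm38, chr9:21028382-21028410 and chr16:84823060-84823088).
Icam1 site: cagtgaggaggTGAATGTataagttatgg
Jam2 site: tgaagtgcaaaTGAATGTcagtttggagt
A seed match is a description of the sequence, and binding was not measured. The untranslated regions of the other 7 genes, Vcam1 and both selectins included, held no such match in the transcript examined.

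RefSeq promoters (250 bases before to 50 after the annotated start) could be matched for 4 of the 9 genes: Icam1, Sele, Selp and Alcam. The 3 that hold a kappaB core, GGNNNTTCC searched on both strands, are printed with matches to this core and to TATAAA in capitals. NF-kappaB is a known switch for Icam1 and Sele among these 4.
Icam1, chr9:21015690-21015989, plus strand: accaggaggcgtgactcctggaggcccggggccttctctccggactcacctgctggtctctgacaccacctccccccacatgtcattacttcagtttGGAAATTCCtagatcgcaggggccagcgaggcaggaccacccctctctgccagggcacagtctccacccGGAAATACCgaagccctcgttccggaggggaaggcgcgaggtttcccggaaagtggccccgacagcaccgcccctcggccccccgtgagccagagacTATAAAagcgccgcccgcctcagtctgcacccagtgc
Sele, chr1:164047984-164048283, plus strand: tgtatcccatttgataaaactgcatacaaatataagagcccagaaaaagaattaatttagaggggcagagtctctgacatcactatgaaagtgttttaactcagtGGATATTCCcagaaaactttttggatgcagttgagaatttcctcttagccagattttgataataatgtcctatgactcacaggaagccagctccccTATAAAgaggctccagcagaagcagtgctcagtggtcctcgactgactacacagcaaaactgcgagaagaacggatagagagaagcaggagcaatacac
Selp, chr1:164115014-164115313, plus strand: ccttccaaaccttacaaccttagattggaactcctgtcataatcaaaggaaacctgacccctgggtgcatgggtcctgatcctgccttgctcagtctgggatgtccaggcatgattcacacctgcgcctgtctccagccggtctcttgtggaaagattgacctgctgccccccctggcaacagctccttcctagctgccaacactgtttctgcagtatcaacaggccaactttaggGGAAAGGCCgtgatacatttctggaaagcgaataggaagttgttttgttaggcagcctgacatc
Icam1 held the core at 153 bases before the start, where it reads on both strands, and again at 84 bases before it. Sele held it 145 and Selp 14 bases before the start, and Alcam held none. TATAAA, searched on both strands, was found in Icam1 and Sele only among these 4. In Sele it lay 49 bases before the start, but in Icam1 13 bases after the annotated start. Of 32851 promoters of this length, 18.5% held the core and 13.6% held TATAAA. The stricter kappaB consensus of 10 letters, present in 8.46% of promoters, was in none of the 4. The core was chosen with these promoters in view, and a match is not evidence of binding.

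Depth ranged from 19495310 to 23976469 counts per library. Libraries of the flox vehicle group stood apart in one respect: a list of 24 epididymis genes summed to between 1955 and 17034 CPM (counts scaled to the library total) in them, against 577 CPM for replicate 1 of flox MTX and at most 23.0 CPM in the other 8 libraries, and 14 testis germ cell genes summed to 246 to 625 CPM in the flox vehicle libraries against at most 40.7 CPM elsewhere. Comparisons with this group therefore also compare tissue with and without those transcripts, and their part in the results below was not tested. KO and flox mice under MTX are compared without this group, but the epididymis list differed there too, with replicate 1 of flox MTX at 577 CPM. Its median log2 fold change in KO against flox mice under MTX was -5.05 over 14 genes tested. None of them was called, and neither was any gene of the table (0%). Removing these genes before scaling left every count of called genes on the library scale within 1.5 times its value. That removal acts on the scaling and leaves any other transcripts that came with these genes, so it does not test their part in the results. A list of 20 endothelial genes, Cdh5 and Pecam1 among them, was well above 0 in every library (674 to 2336 CPM), as was a list of 10 adipocyte genes, so the labelled tissue and its vessels were both present. The deleted precursors were too rare to check the genotype, with at most 2 counts of Mir181a-2 in 1 flox library and 0 in the other 11. Mice were labelled as separate samples, and the levels below are CPM scaled by TMM factors (a correction for library composition).

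Per length, as RPKM (CPM divided by exon length) averaged over the 12 libraries, Alcam (14.7) and Selplg (12.6) stood highest and Sele (0.0614) lowest. Icam2 (7.67), Jam2 (5.61), Vcam1 (5.37) and Icam1 (5.09) lay between, above Jam3 (3.04) and Selp (1.26). Selplg had the widest range across libraries, 11.3-fold in CPM from lowest to highest, followed by Vcam1 (5.87-fold) and Icam1 (4.93-fold). Jam3 had the narrowest range (1.92-fold) of the 8 genes tested.

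The immunoglobulin-type ligands that stop rolling leukocytes came first. Vcam1, the ligand of the integrin VLA-4 (chr3:116109949-116129688, minus strand), measured 14.0, 14.5 and 32.9 CPM in the flox vehicle mice (replicates 1, 3 and 4), 48.7, 45.6 and 45.9 in the KO vehicle mice (replicates 1, 2 and 3), 45.3, 82.2 and 24.2 in the flox MTX mice (replicates 1, 2 and 4), and 72.4, 79.9 and 66.0 in the KO MTX mice (replicates 2, 3 and 4). The same order of replicates is used for the other genes. Both KO groups lay entirely above the flox vehicle group, whereas the flox MTX mice were spread over the whole range from flox vehicle to KO MTX. Icam1, the ligand of the beta2 integrins LFA-1 and Mac-1 (chr9:21015985-21028817, plus strand), stood at 9.07, 9.28 and 9.74 CPM in flox vehicle, 23.7, 28.6 and 32.1 in KO vehicle, 14.5, 29.1 and 12.8 in flox MTX, and 28.2, 44.7 and 24.5 in KO MTX mice. The flox vehicle mice were close together and below each of the other 9, and flox MTX replicate 2 reached the level of the KO mice for both genes. Icam2, a ligand of LFA-1 that resting endothelium carries (chr11:106377656-106388075, minus strand), stood at 9.50, 10.9 and 9.10 CPM in flox vehicle, 20.3, 23.1 and 14.8 in KO vehicle, 15.6, 12.1 and 12.1 in flox MTX, and 17.4, 12.9 and 17.6 in KO MTX mice. Its flox vehicle level was again the lowest and did not overlap with any other group, while the other 3 groups overlapped.

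Among the selectins, Sele was close to the limit of detection and Selp was low. E-selectin (Sele, chr1:164048234-164057677, plus strand) appears on cytokine-activated endothelium. Its raw counts were 1, 7 and 8 in flox vehicle, 2, 1 and 3 in KO vehicle, 1, 5 and 6 in flox MTX, and 0, 5 and 7 in KO MTX libraries. Summed over 3 libraries this gave 0.238 CPM in flox vehicle mice (16 counts, exact 95% Poisson interval 0.136 to 0.386) and 0.0962 CPM in KO vehicle mice (6 counts, 0.0353 to 0.209), with 12 counts in each MTX group, and these intervals cover counting error only. A gene at this depth could not be told from 3 counts, the number that a count of 0 allows, in 6 of the 12 libraries, and no difference in Sele was detectable: without the filter the log2 fold change of KO against flox under vehicle was -1.21 ± 1.06 (SE, adjusted p = 0.517, edgeR). P-selectin (Selp, chr1:164115264-164150026, plus strand) is stored in endothelium and platelets. Selp stood at 5.81, 8.57 and 3.60 CPM in flox vehicle, 4.13, 8.17 and 5.90 in KO vehicle, 4.39, 3.32 and 2.31 in flox MTX, and 8.66, 5.42 and 6.47 in KO MTX mice. The vehicle groups covered the same range, and the 2 MTX groups did not overlap. Selplg (chr5:113818536-113832644, minus strand), whose product carries the sugars that selectins bind, stood at 11.4, 10.1 and 21.2 CPM in flox vehicle, 59.5, 60.7 and 76.2 in KO vehicle, 40.4, 69.2 and 16.7 in flox MTX, and 92.5, 114 and 76.0 in KO MTX mice. Each KO mouse was above each flox mouse of the same treatment.

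The junctional genes moved less. Jam2 (chr16:84774123-84825928, plus strand), expressed at the junctions of endothelium, stood at 23.6, 26.2 and 24.9 CPM in flox vehicle, 47.0, 55.0 and 41.6 in KO vehicle, 32.1, 22.7 and 21.3 in flox MTX, and 40.9, 32.8 and 39.1 in KO MTX mice. The order was KO vehicle, KO MTX, then the 2 flox groups, with no overlap except between the flox groups. Jam3 (chr9:27097384-27155421, minus strand), a partner of JAM-B in junctions, stood at 7.98, 9.05 and 9.19 CPM in flox vehicle, 11.4, 13.9 and 10.5 in KO vehicle, 10.2, 9.18 and 7.25 in flox MTX, and 8.61, 9.10 and 10.5 in KO MTX mice. KO vehicle was above flox vehicle without overlap, and neighbouring groups in the order of levels overlapped. Alcam (chr16:52248996-52454074, minus strand), a receptor for CD6 of T cells that many cell types carry, stood at 59.8, 71.0 and 96.4 CPM in flox vehicle, 98.2, 101 and 151 in KO vehicle, 117, 67.0 and 117 in flox MTX, and 129.5, 136 and 115 in KO MTX mice. All 6 KO mice were above the 3 flox vehicle mice, by a narrow margin in 2 of them.

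**Figure D1:**
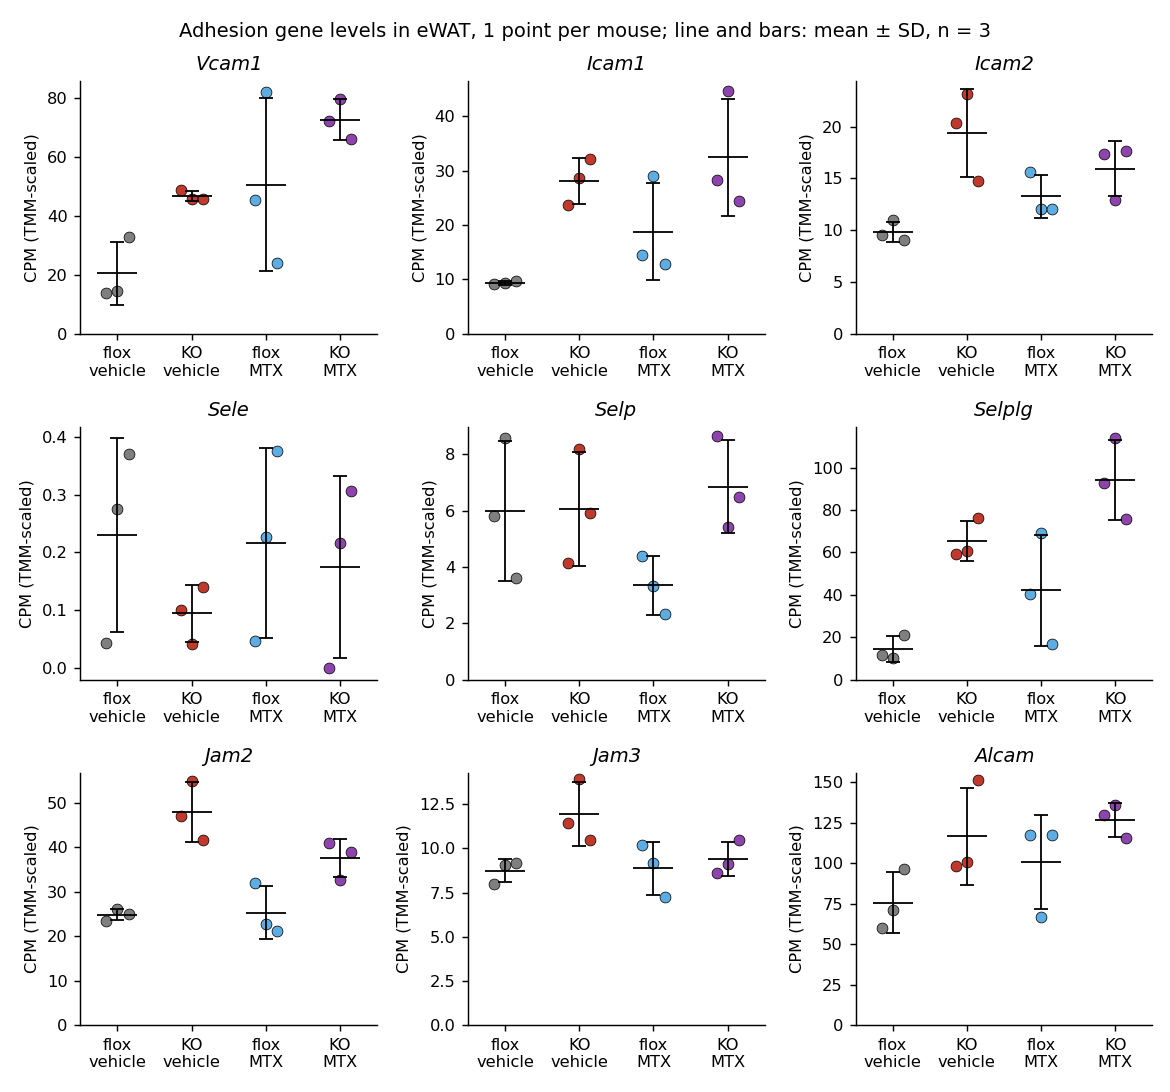
Levels of the 9 adhesion genes in CPM (vertical axes, TMM-scaled) by group, with 1 point per mouse and the mean ± SD over 3 mice. Vcam1, Icam1, Icam2, Selplg and Jam2 were lower in each flox vehicle mouse than in each KO vehicle mouse, and Sele stayed below 0.4 CPM.

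Loss of Mir181a2b2 under vehicle went with higher levels of most of these genes. KO exceeded flox mice for 6 of the 8 genes tested, and no gene was lower past the test. A call needed a p below 0.1 after Benjamini-Hochberg adjustment over all 18702 genes (edgeR's quasi-likelihood test), together with a change of 1.5-fold or more. By that rule 31.7% of all genes were called between these groups, 2598 of them higher and 3326 lower in KO. The median log2 fold change of the 8 genes was 0.96, against -0.06 over all genes. Selplg had the largest change, with a log2 fold change of 2.20 ± 0.44 (SE, 4.60-fold, adjusted p = 0.00511), followed by Icam1 at 1.59 ± 0.31 (adjusted p = 0.00490). Vcam1 rose by 1.19 ± 0.41 on the log2 scale (2.28-fold, adjusted p = 0.0485). Leaving out either of flox vehicle replicates 1 and 3 ended this call (0.98 and 0.99, adjusted p = 0.150 and 0.149), as did leaving out KO vehicle replicate 3, at 1.21 with an adjusted p just above the limit. The changes of Icam2 (0.98 ± 0.21, adjusted p = 0.00612) and Jam2 (0.94 ± 0.17, adjusted p = 0.00403) were close to 2-fold (1.97 and 1.92). Alcam was called at 0.62 ± 0.26 (1.54-fold, adjusted p = 0.0886), a call lost under RLE factors, under a filter of 10 counts in every library (0.59, adjusted p = 0.103) and without any one of 6 libraries, namely flox vehicle replicates 1 and 3, KO vehicle replicate 3 and each KO MTX library, where the adjusted p reached up to 0.319. Jam3 had a log2 fold change of 0.45 ± 0.19 (adjusted p = 0.0935), under the fold limit. Selp was at 0.02 ± 0.37 (95% interval -0.80 to 0.84, adjusted p = 0.979).

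Under MTX all 8 log2 fold changes of the same genotype comparison were above 0, and those of 7 genes, all but Selp, were nearer to 0 than under vehicle, without a called interaction for any of them. None of the 8 genes was called, but neither was any gene of the table (0% of 18702): the smallest adjusted p over all genes was 0.104, while 4576 genes had an unadjusted p below 0.05. Of the 8 genes, 4 had an unadjusted p below 0.05, and DESeq2 called 3 of them (Icam1, Selp and Selplg, adjusted p = 0.0847, 0.0652 and 0.0537) and 16.6% of all genes it tested, 2734 of 16468. The log2 fold changes were 1.16 ± 0.43 for Selplg (adjusted p = 0.142, edgeR), 1.03 ± 0.38 for Selp (adjusted p = 0.143), 0.79 ± 0.31 for Icam1 (adjusted p = 0.155) and 0.57 ± 0.17 for Jam2 (adjusted p = 0.113). Of these, Selplg, Selp and Jam2 had no overlap between the groups. Vcam1 was at 0.52 ± 0.40 (adjusted p = 0.439) and overlapped, because flox MTX replicate 2 had the highest Vcam1 level of all 12 mice. Without that library 20.8% of all genes were called under MTX (4064 of 19532), 3 of the 8 among them: Icam1 at 1.25 (adjusted p = 0.0278), Selplg at 1.72 (adjusted p = 0.0300) and Vcam1 at 1.06 (adjusted p = 0.0763). Icam2 (0.27), Alcam (0.33) and Jam3 (0.08) were not called under MTX, with adjusted p of 0.445, 0.438 and 0.814 in edgeR.

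MTX against vehicle in flox mice was the comparison that asks whether the drug lowers these molecules, and no gene of the 8 was lower past the test. Vcam1, Icam1 and Selplg were higher under MTX (3 of 8 called), against 24.2% of all genes called, 1513 higher and 3015 lower. Selplg was at 1.57 ± 0.44 (2.96-fold, adjusted p = 0.0307, edgeR), Vcam1 at 1.31 ± 0.41 (2.47-fold, adjusted p = 0.0465) and Icam1 at 1.01 ± 0.31 (2.01-fold, adjusted p = 0.0451). Only for Icam1 did the replicates not overlap. The calls rested on few mice. With the 6 libraries of the comparison alone none of the 3 was called (adjusted p = 0.144 to 0.194, edgeR), beside 12.2% of all genes. Without flox vehicle replicate 3 none was (11.7% of all genes), and without flox vehicle replicate 1 only Selplg was (19.6%). Without flox MTX replicate 2 the changes of Vcam1 and Icam1 fell to 0.78 (adjusted p = 0.142) and 0.55 (adjusted p = 0.127). Selp was lower at -0.84 ± 0.38 (0.559-fold, adjusted p = 0.143) and was not called, although without flox vehicle replicate 4 it reached -1.09 (adjusted p = 0.0523). Icam2 (0.43), Alcam (0.41), Jam2 (0.03) and Jam3 (0.02) were not called, but Alcam was called without flox MTX replicate 2 (0.65, adjusted p = 0.0763).

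In KO mice MTX against vehicle called none of the 8 genes and none of the table (0%), with 0 of the 8 and 1491 of all genes at an unadjusted p below 0.05 and 0 of the 8 called by DESeq2, which called 1.39% of all genes. Vcam1 was at 0.64 ± 0.40 (adjusted p = 0.744, edgeR), with the 3 KO MTX mice above the 3 KO vehicle mice. Jam2 was at -0.35 ± 0.17 (adjusted p = 0.657), with KO MTX below KO vehicle mice without overlap. The interaction, the difference between the MTX effects of the 2 genotypes, called none of the 8 in edgeR or DESeq2, against 0.989% and 6.01% of all genes. It was past an unadjusted p of 0.05 only for Icam2 (-0.71 ± 0.29, adjusted p = 0.283, edgeR), and was 1.01 ± 0.53 for Selp (adjusted p = 0.397), the only one of the 8 with a positive value. These comparisons share libraries (the flox vehicle mice enter both the KO comparison under vehicle and the MTX comparison in flox mice), so their values are given side by side only.

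The vessel markers themselves were higher in KO fat. Of the 20 endothelial genes, 16 rose in KO against flox mice under vehicle and none fell, with a median log2 fold change of 1.03, against 31.7% of all genes called. Eng (1.45, adjusted p = 0.00276, edgeR), a TGF-beta co-receptor, Sox17 (1.58, adjusted p = 0.00398), an arterial transcription factor, and Esam (1.29, adjusted p = 0.00523), a junction molecule, had the smallest adjusted p, and Cdh5 and Pecam1 were both at 1.20. Sox17 was the highest of the list and Nos3, the endothelial nitric oxide synthase, the lowest (-0.16, adjusted p = 0.847). The list median was 0.59 for KO against flox under MTX, 0.08 for MTX in flox and -0.41 for MTX in KO mice, with none of the 20 called. No gene of the table was called in the first and last of these, whereas 24.2% were called for MTX in flox mice. In bulk tissue more cells of a type and more RNA per cell cannot be told apart.

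Relative to endothelial genes, the genotype difference was smaller for most of the family. Here each library was scaled by the mean log level of the endothelial list, so that a value is the change beyond that of the list. This moved the median of all genes to -1.05 in KO against flox under vehicle, and 62.4% of genes were called, 11263 of them lower, so counts on this scale reflect that shift. Of the 8 adhesion genes 2 were called: Selplg was higher at 1.26 ± 0.57 (adjusted p = 0.0704, edgeR) and Selp lower at -0.99 ± 0.47 (adjusted p = 0.0843). The 95% interval of Selp, -1.98 to 0.0027, just included 0, and its value was close to the median of all genes on this scale. Selplg was not called with Cdh5 and Pecam1 alone as the scale (1.05, adjusted p = 0.116) or with the replicate number as a block (0.83, adjusted p = 0.194), and Selp was not called without the filter on low counts (-0.99, adjusted p = 0.148). Without KO vehicle replicate 1 or 2, either flox vehicle replicate 1 or 3, or KO MTX replicate 2 the call of Selp was lost as well, and that of Selplg without flox vehicle replicate 1 or 3 or KO vehicle replicate 3. Icam2 (-0.06 ± 0.33, 95% interval -0.76 to 0.65) and Jam2 (-0.07 ± 0.31, -0.73 to 0.58) were close to 0. Icam1 (0.62 ± 0.53), Vcam1 (0.24 ± 0.52), Alcam (-0.29 ± 0.37) and Jam3 (-0.56 ± 0.39) were not called, with intervals that include 0, although Alcam was called lower without KO vehicle replicate 3 (-0.76, adjusted p = 0.0978).

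By library, the log2 ratio of Icam2 to the endothelial mean was -1.63, -1.87 and -2.11 in flox vehicle and -1.92, -1.88 and -1.95 in KO vehicle mice, so the groups overlapped although the levels did not. For Selplg the same ratio was -1.36, -1.98 and -0.89 in flox vehicle and -0.37, -0.49 and 0.41 in KO vehicle mice, without overlap. The Selp ratio was -2.33, -2.21 and -3.42 in flox vehicle and -4.19, -3.37 and -3.26 in KO vehicle mice, where flox vehicle replicate 4 lay among the KO mice.

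The other comparisons on the endothelial scale called few genes. KO against flox under MTX called none of the 8 (13.5% of all genes), none at an unadjusted p below 0.05, with Selplg at 0.54 ± 0.56 and Selp at 0.50 ± 0.47. Without flox MTX replicate 2 Selplg reached 1.68 there and was called (adjusted p = 0.0347, edgeR), against 12.6% of all genes. MTX in flox mice called Selplg (1.73 ± 0.57, adjusted p = 0.0662, edgeR) and Vcam1 (1.49 ± 0.53, adjusted p = 0.0914) against 14.2% of all genes, and Icam1 was at 1.14 ± 0.54 (adjusted p = 0.239), called without the filter (adjusted p = 0.0634) and without flox MTX replicate 1 (1.49, adjusted p = 0.0887). Neither was called without flox vehicle replicate 1 or 3 or flox MTX replicate 2, with Vcam1 down to 0.40 and Selplg to 0.59, and flox MTX replicate 2 had the lowest endothelial mean of the 12 libraries beside high Vcam1. Without KO vehicle replicate 2, which is not in this comparison, the call of Vcam1 was also lost. MTX in KO mice called none (0% of all genes), with Vcam1 alone at an unadjusted p below 0.05 (1.13 ± 0.53, adjusted p = 0.552, edgeR). The interaction called none of the 8 (3.63% of all genes), and Selp was at 1.49 ± 0.67 (adjusted p = 0.402, edgeR), or 1.84 without flox MTX replicate 2, where it was called (adjusted p = 0.0978) with 10.4% of all genes.

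**Figure D2:**
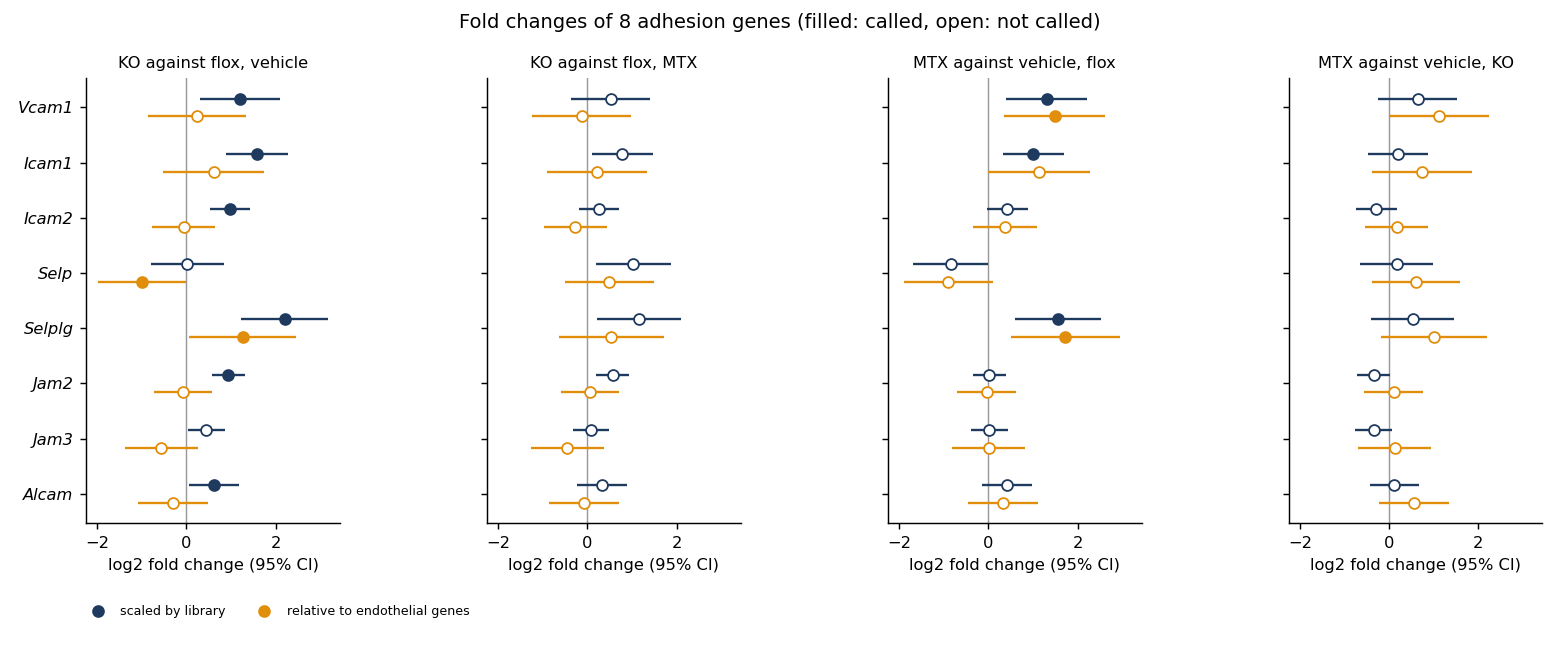
Log2 fold changes with 95% intervals of the 8 genes tested in 4 comparisons, scaled by library (blue) and relative to 20 endothelial genes (orange), with filled points for called genes. In KO against flox mice under vehicle the values of Icam2 and Jam2 move from about 1 to about 0 on the endothelial scale, and Selplg moves from 2.20 to 1.26.

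The genes split by the markers they varied with across the 12 libraries. Pearson's r of log2 CPM with the log2 sum of 12 macrophage genes was 0.99 for Selplg, 0.96 for Icam1 and 0.92 for Vcam1, and with the endothelial mean it was 0.43, 0.35 and 0.28. For Jam2, Icam2 and Jam3 it was 0.91, 0.88 and 0.74 with the endothelial mean and 0.67, 0.64 and 0.50 with the macrophage sum. Alcam (0.58 and 0.54 with macrophage and endothelial genes) and Selp (0.24 and 0.42) followed neither list as closely. These values describe 12 libraries that share 4 groups, depth and composition factors, and carry no test. Each macrophage gene was called higher in KO against flox under vehicle (12 of 12, median 2.59) and in MTX against vehicle in flox mice (12 of 12, median 1.79), the 2 comparisons in which Vcam1, Icam1 and Selplg were called. The macrophage sum was 1029 to 1955 CPM in flox vehicle, 6318 to 10528 in KO vehicle, 1322 to 7661 in flox MTX and 8179 to 13168 in KO MTX libraries, with the 7661 in flox MTX replicate 2. The part of macrophage RNA in the values of these 3 genes was not tested.

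**Figure D3:**
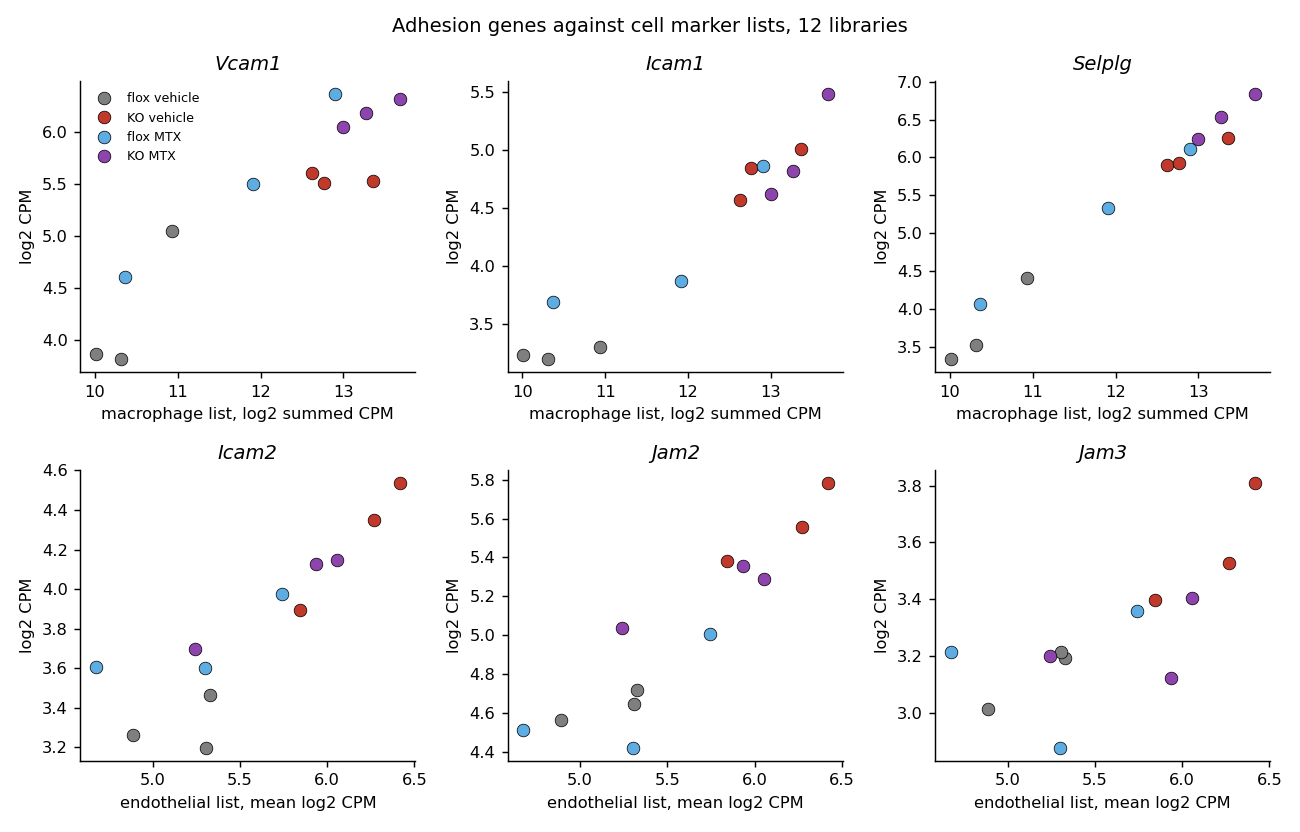
Log2 CPM of 6 adhesion genes in the 12 libraries (1 point each, colored by group), plotted for Vcam1, Icam1 and Selplg against the log2 sum of the macrophage list and for Icam2, Jam2 and Jam3 against the mean log2 CPM of the endothelial list. Selplg lies nearly on a line with the macrophage sum (r = 0.99), and flox MTX replicate 2 sits with the KO libraries in the upper panels.

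Set against the macrophage list, each adhesion gene except Selplg was lower in KO than in flox vehicle mice without overlap. The log2 ratio of Selplg to the macrophage list had group medians of -1.91, -2.26, -2.26 and -2.35 in flox vehicle, KO vehicle, flox MTX and KO MTX mice. For Vcam1 the medians were -1.38, -2.67, -2.06 and -2.70, and for Icam1 -2.55, -3.49, -3.56 and -3.97. All 3 medians were highest in the flox vehicle group, and the ratio of Vcam1 was lower in each KO vehicle mouse (-3.27 to -2.46) than in each flox vehicle mouse (-1.93 to -1.14). The same held for Icam1 (-3.79 to -3.34 against -2.89 to -2.02), and for Selplg the ranges overlapped (-2.54 to -2.17 against -2.22 to -1.77). Icam2 (-4.90 to -3.65 against -2.99 to -1.79), Sele, Selp, Jam2, Jam3 and Alcam (-1.55 to -1.44 against 0.16 to 0.90) were lower without overlap too. The macrophage genes had a median log2 fold change of 2.59 there, and a gene that rises less falls on this ratio. The lower ratio was therefore not particular to Vcam1 and Icam1. This ratio was chosen after the values were seen and is given without a test.

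The genes whose levels were most like each of the 9, among 15515 genes with a mean of at least 1 CPM, followed the same split. For Vcam1 they were H2-Ab1 (r = 0.99), H2-Eb1, Cyp4f18, H2-DMa and Cd74, 4 of which belong to the MHC class II pathway. For Selplg they included Alox5ap, Arhgap9, Lyz2 and Csf1r (r = 1.00 for each, rounded), and for Icam1 Fmnl1, Arap1, Crlf3, P2rx7 and Rgs14 (0.98 to 0.99). Icam2 was most like Esam (0.95), then Ablim3, S1pr1, Trp53i11 and Smtn, and Jam2 like Adcy4 (0.97), Gpr160, Slc9a3r2, Smtn and Grrp1. Jam3 was most like Itm2a (0.92), Grasp, Mcc, Tpm2 and Pde5a, Alcam like Vps29 (0.98), Bub3, Rala, Col6a3 and Map7d1, and Selp like Fam98c (0.92), Prag1, Dhx35, Cacna1d and Doc2b. For Sele they included Kdm4c (0.81), Tnpo1, Mfsd14a and Ptpn9, a likeness that rests on at most 8 counts per library. Among the 9 themselves, Vcam1 and Selplg (0.95), Icam1 and Selplg (0.95) and Icam2 and Jam2 (0.90) were the closest pairs.

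The leukocyte side of the contact was higher as well. Of 12 counter-receptors, the integrins and other leukocyte molecules that bind this family, 7 rose in KO against flox mice under vehicle and none fell (median 1.68). The shares of all genes called were 31.7% in this comparison and 24.2% for MTX in flox mice. Cd44, a hyaluronan receptor that also binds E-selectin, was at 2.46 (adjusted p = 0.00459, edgeR), Itgb2, the beta chain of LFA-1 and Mac-1, at 2.83 (adjusted p = 0.00488) and Itgam, the alpha chain of Mac-1, at 2.77 (adjusted p = 0.00494). Itgax was highest at 3.05, and Itgb1, the broadly expressed partner of Itga4 in VLA-4, lowest at 0.48. MTX in flox mice raised 10 of the 12 (median 1.66), with Spn at 1.94 (adjusted p = 0.0114), Itgb7 at 1.59 (adjusted p = 0.0299) and Itga4, the VCAM-1 binding chain, at 1.71 (adjusted p = 0.0404). Itgb1 was again lowest at 0.52. None of the 12 was called in the other 2 comparisons, and neither was any gene of the table (0%). The list median was 0.60 for KO against flox under MTX, with 9 of the 12 above 0. For MTX in KO mice it was 0.56, with all 12 above 0.

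The enzymes that build selectin ligands were split. Of 10, 6 rose in KO mice under vehicle (median 0.72) and none was called lower. Over all genes 31.7% were called in that comparison and 24.2% for MTX in flox mice. Gcnt1, which branches the O-glycans of PSGL-1, was at 2.84 (adjusted p = 0.00276, edgeR), Chst2, a sulfotransferase, at 1.18 (adjusted p = 0.00370) and Fut7, the fucosyltransferase that completes sialyl Lewis x in leukocytes, at 2.81 (adjusted p = 0.00490). Fut4 was lowest at -0.75 (adjusted p = 0.248). MTX in flox mice raised 3 of the 10, Gcnt1 (1.58, adjusted p = 0.0177), Fut7 (2.10, adjusted p = 0.0268) and Chst4 (1.70, adjusted p = 0.0477), with Fut4 again lowest at -1.01. Both Fut7 values rest on a low level in flox vehicle mice, 0.0787 to 0.508 CPM with at most 11 counts per library. Among other molecules of rolling and diapedesis, 10 of 14 were tested and 6 rose in KO mice under vehicle, Cd34 (1.13, adjusted p = 0.00276), Esam and Cd47 (0.71, adjusted p = 0.00581) among them, and only Cd34 (0.66, adjusted p = 0.0173) rose with MTX in flox mice. Esam, Cdh5 and Pecam1 of this list are also in the endothelial list.

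Cytokines and their response genes in activated endothelium moved in part. Of 19, 9 rose in KO mice under vehicle (median 0.72) and 6 with MTX in flox mice (median 0.41), against 31.7% and 24.2% of all genes called. Relative to endothelial genes the medians were -0.25 and 0.44. In bulk fat the cells that gave these values are not known. Tnf was at 2.38 (adjusted p = 0.00946, edgeR) and 1.87 (adjusted p = 0.0394) in the KO and MTX comparisons, with at most 13 counts in a flox vehicle library. Nfkb2 was at 0.72 (adjusted p = 0.00590) and 0.61 (adjusted p = 0.0193). Csf1 rose in both as well (1.05, adjusted p = 0.0100, and 0.64, adjusted p = 0.0933), and Irf1 was called in KO mice (0.76, adjusted p = 0.00689) but not with MTX (0.38, adjusted p = 0.130). Platelet genes, the other source of Selp, were called higher for 3 of the 6 tested in KO mice under vehicle: Pf4 (2.09, adjusted p = 0.00509), Treml1 (2.96, adjusted p = 0.00995) and Gp1bb (1.13, adjusted p = 0.0555). Selp itself was not called there. Of the 6 tested, 5 had a positive change there and none was called lower. Itga2b went the other way, with means of 17.1 CPM in flox vehicle and 6.76 CPM in KO vehicle mice, and these groups overlapped. Gp9 was also lower, at means of 2.59 and 0.112 CPM. Treml1 and Gp1bb had at most 14 and 17 counts in a flox vehicle library. With MTX in flox mice, 1 of the 6 platelet genes was called higher and 1 lower. Macrophages can express Pf4 as well, and which cells these transcripts came from was not tested.

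**Figure D4:**
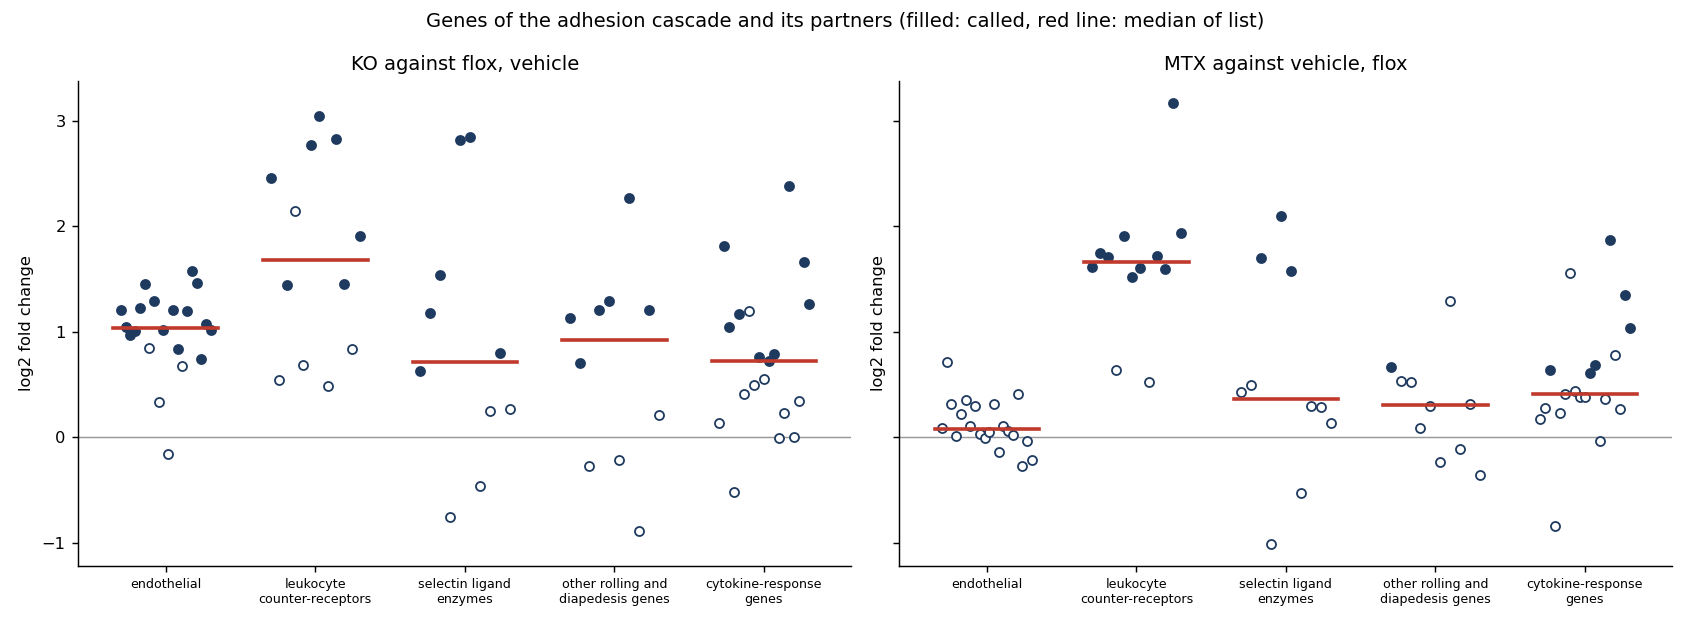
Log2 fold changes of single genes in 5 lists for KO against flox mice under vehicle (left) and MTX against vehicle in flox mice (right), with filled points for called genes and the list median in red. The endothelial median is 1.03 on the left and 0.08 on the right, whereas the counter-receptor median is 1.68 and 1.66.

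Lists of other cells in the tissue moved too, beside 31.7% of all genes called in KO against flox under vehicle and 24.2% for MTX in flox mice. Of 10 fibroblast and pericyte genes 7 rose in KO mice under vehicle (median 1.32), Lum (2.52), Pdgfrb (1.10) and Col1a1 (2.07) among them, and 4 with MTX in flox mice. Lymphatic endothelial genes rose in 4 of 5 tested (Lyve1 2.18, Pdpn 1.29, Flt4 1.09) and 2 with MTX in flox mice (Lyve1 2.22, Pdpn 1.10). Of 10 adipocyte genes 2 fell in KO mice under vehicle (Cfd by 3.13 and Retn by 1.87 on the log2 scale). Of 9 mesothelial genes 1 rose and 2 fell there, and 6 rose and 2 fell with MTX in flox mice, where Krt8 and Krt18, which other epithelia also express, were those that fell in both. In the epididymis list 11 of 14 tested, and in the germ cell list 13 of 14, were called lower than in flox vehicle mice in both comparisons with that group. What these shifts contributed to the adhesion genes was not tested.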

How the data were processed

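Illumina RNA-seq of eWAT from 12 mice was used, in 4 groups of 3. The authors trimmed reads with Trimmomatic 0.36, aligned them with STAR 2.5.2b to GRCm38 and used featureCounts (Subread 1.5.2) to count them per Ensembl gene, and the deposited values are raw counts. The sample labels describe polyA RNA and the methods of the study ribosomal depletion, and strand and multimapping settings were not given in the sources used here.

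Counts were analysed in R 4.3.3 with edgeR 4.0.16 (TMM, filterByExpr by group, 1 quasi-likelihood fit of 12 libraries, 8 residual degrees of freedom, Benjamini-Hochberg over 18702 genes). For the endothelial scale, the mean log CPM of 20 endothelial genes was added to the offsets. RPKM used exon lengths of the GENCODE annotation of GRCm38. Genes without a symbol held 0.0688% of counts. DESeq2 1.42.0 and other settings were alternatives. On simulated counts for KO against flox under vehicle, edgeR called 180 of 200 genes changed 4-fold and 19 unchanged genes of 18702, and the endothelial scale 177 and 16. Exact permutation tests of 3 mice against 3 cannot go below 0.1. The 9 genes and all lists were chosen with earlier results of these data known. Named genes are the 9, the 3 called genes per list and comparison with the smallest adjusted p and no overlap, the extremes of 3 lists, Cdh5, Pecam1 and the 5 genes most like each of the 9. Some genes that this rule names are not reported here. Genes counted as lost or gained under an alternative were named after their values were seen. Replicate numbers were not treated as pairs (median residual correlation 0.035 in 12 pairs with the same number and 0.011 in 42 others), and no pair of libraries in a group was a duplicate (chi-square per degree of freedom at least 12.9). P-values measure the spread between mice of 1 cohort.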

Additional observations from a re-analysis of the deposited data

Results flagged for a closer look

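The effect of MTX differed between genotypes for Lyve1, a gene of lymphatic endothelium and of resident macrophages: the interaction was -2.43 on the log2 scale (adjusted p = 0.0970, edgeR). MTX changed Lyve1 by 2.22 in flox and by -0.20 in KO mice. In the testis germ cell list, 10 of 14 genes had a called interaction, with all 3 flox vehicle libraries high in these transcripts. Neither involves one of the 9 adhesion genes.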

How the results depend on the processing

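The limits below are those of 3 mice per group, of 1 tissue and of a flox vehicle group with epididymis transcripts. The counts of called genes in KO against flox under vehicle ranged from 4 to 6 with each library left out. They fell to 2 with a log2 fold change limit of 1.5, where 16.2% of all genes were called. Calls over all genes also moved with the setting, so their share is given beside the counts that moved. Under MTX 0 became 3 with DESeq2, which called 2734 genes in all (16.6%). It ranged from 0 to 3 with a library left out, the 3 being among 4064 genes (20.8%) called without flox MTX replicate 2. For MTX in flox mice 3 became 1 with the log2 limit, 1 with the replicate number as a block and 0 when only its own libraries were fitted, and ranged from 0 to 4 with a library left out. MTX in KO mice and the interaction stayed at 0 throughout. Relative to endothelial genes, the 2 called in KO against flox under vehicle became 1 with Cdh5 and Pecam1 as the scale (69.6% of all genes). They became 1 with the block (62.4%) and 1 without the filter (39%), with 0 to 2 when a library was left out. Where leaving out a library moved the count, 43.4% to 60.1% of all genes were called. The 2 of MTX in flox mice became 1 with Cdh5 and Pecam1 (13.9% of all genes) and 0 with the block (11.3%). They became 0 under the stricter filter of 10 counts per library (4.49%), with 0 to 3 when a library was left out. The share of all genes was 9.07% to 18.5% where leaving out a library moved this count. The other counts there were 0, or 0 to 1 with a library left out for KO against flox under MTX and for the interaction. Without flox MTX replicate 2, which gave the 1 in each, 12.6% and 10.4% of all genes were called. Of the calls named, the block ended those of Vcam1 in KO against flox under vehicle (1.12, adjusted p = 0.133, edgeR), and of Vcam1 (1.13, adjusted p = 0.171) and Selplg (1.37, adjusted p = 0.132) for MTX in flox mice, and library size as the only scaling ended that of Icam1 there (0.85, adjusted p = 0.133). Relative to endothelial genes the block ended those of Selplg in KO against flox under vehicle (0.83, adjusted p = 0.194, edgeR) and of Vcam1 (1.14, adjusted p = 0.286) and Selplg (1.33, adjusted p = 0.179) for MTX in flox mice. Numbers alone are no pairing of mice. The cause of these losses was not tested.

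Every log2 fold change that turned sign had not been called. Selp in KO against flox under vehicle was at -0.000298 with DESeq2, -0.00131 with RLE factors, -0.00708 under the stricter filter and -0.21 with the block. For MTX in flox mice, Jam2 and Jam3 were at -0.18 and -0.17 with library size only, -0.011 and -0.017 under the stricter filter, and -0.052 and -0.026 with the block. Relative to endothelial genes the block gave -0.015 for Vcam1 in KO against flox under vehicle, -0.024 for Icam1 in KO against flox under MTX and -0.022 for Jam3 with MTX in flox mice, and Cdh5 and Pecam1 as the scale gave -0.11 for Jam2 in KO against flox under MTX and -0.044 for Jam3 with MTX in flox mice. Leaving out 1 library turned the sign of further values, given as ranges. For KO against flox under vehicle these were Selp (-0.24 to 0.37). For KO against flox under MTX these were Jam3 (-0.033 to 0.21). For MTX in flox mice these were Jam2 (-0.18 to 0.15) and Jam3 (-0.089 to 0.15). For MTX in KO mice these were Icam1 (-0.094 to 0.38) and Selp (-0.053 to 0.45). Relative to endothelial genes, for KO against flox under vehicle these were Icam2 (-0.17 to 0.070) and Jam2 (-0.15 to 0.040). For KO against flox under MTX these were Vcam1 (-0.52 to 0.97), Icam1 (-0.48 to 1.17), Jam2 (-0.11 to 0.31) and Alcam (-0.43 to 0.13). For MTX in flox mice these were Jam2 (-0.28 to 0.10) and Jam3 (-0.37 to 0.18). For MTX in KO mice these were Jam2 (-0.069 to 0.22) and Jam3 (-0.14 to 0.27). For the interaction these were Vcam1 (-0.78 to 0.73), Icam1 (-1.09 to 0.56), Icam2 (-0.34 to 0.042), Selplg (-1.22 to 0.42), Jam2 (-0.034 to 0.38), Jam3 (-0.15 to 0.50) and Alcam (-0.14 to 0.69).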
